A study of Mus musculus with 4 samples.

Results

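The genes described here are 10 components and readouts of the hedgehog pathway and of ventral neural patterning: the patched receptor Ptch1, the ligand-binding antagonist Hhip, the transcription factors Gli1, Gli2 and Gli3, the homeodomain factors Nkx2-2, Nkx2-9, Nkx6-1 and Nkx6-2, and the basic helix-loop-helix factor Olig2. They were chosen by name, and each of the 10 symbols was found among the 21690 features of every deposited table. The libraries were made from neural precursors grown out of mouse embryonic stem cells of the A2lox line, in a clonal derivative carrying a doxycycline-inducible knockdown of the small nucleoprotein Geminin. The knockdown group holds 3 libraries from independent experiments, in which 500 ng doxycycline was given from day 3 of monolayer culture in N2B27, a serum-free neural medium, to harvest on day 5. The control is 1 library of the same line, grown for the same 5 days without doxycycline. Both groups carry the knockdown construct, and no culture with doxycycline but without it was used here, so doxycycline and knockdown cannot be told apart. Stem cells had been kept on mouse embryonic fibroblast feeders before differentiation.

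In the developing spinal cord, Sonic hedgehog made by the notochord and the floor plate spreads dorsally. Binding of a ligand to Ptch1 relieves the block on the transducer Smo, which shifts Gli2 and Gli3 away from their repressor forms. Cells that respond transcribe Gli1, Ptch1 and Hhip, and these genes are widely read as a measure of pathway activity. Graded signalling then sets up progenitor domains, of which Nkx2-2 and Nkx2-9 mark the most ventral, Olig2 the motor neuron domain, and Nkx6-1 and Nkx6-2 broader ventral territories.

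Levels are FPKM, the fragments of a gene divided by its exon length and by the mapped fragments of the library, which allows genes of different length to be compared. Each table of the authors sets 1 knockdown library against the same control, so every Cuffdiff test in them compares those libraries and not the conditions, and the 3 tables are not independent. Relative to the control, depth was 1.00, 1.15 and 0.972 in knockdown libraries 1, 2 and 3, while absolute depth is unknown. Geminin itself (Gmnn, chr13:24843713-24853806 in mm9) was at 24.0%, 58.4% and 24.7% of the control in the 3 knockdown libraries, and the authors' deposited tables marked it in libraries 1 and 3. Fewer features lay far from the control in library 1, with 57, 360 and 357 at least 1 log2 unit above it and 67, 295 and 191 at least as far below it in libraries 1, 2 and 3. The SD of the log2 ratios over features was 0.690, 0.760 and 0.692 in the same order. A few extreme features can raise that SD, so closeness to the control was not judged from it. All 10 neural precursor markers had a mean of at least 1 FPKM, among them Sox1 at 63.8, 42.5 and 48.8 FPKM in the knockdown libraries and 64.0 FPKM in the control. In these bulk cultures, fewer cells of a type and less RNA per cell cannot be told apart.

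Of the 10 genes, Nkx6-2 alone was at more than 2 times the control in every knockdown library. It was at 4.70, 4.17 and 4.03 FPKM in the knockdown libraries, against 1.51, 1.47 and 1.45 FPKM for the control in the 3 tables. Ptch1, Gli2 and Gli3 were expressed at 10 to 40 FPKM in every library, whereas Gli1, Hhip, Nkx2-2, Nkx2-9 and Olig2 stayed below 1 FPKM throughout. None of the 10 genes met the rule stated for the series, a mark of significance in at least 2 of the authors' deposited tables in 1 direction and none in the other, which 417 of 14477 testable features (2.88%) met. Of the 10, 7 could be called by that rule, since Nkx2-9 and Olig2 were tested in no table and Nkx6-1 in 1. In single tables, the authors' deposited table of library 1 marked Nkx6-2 higher and Ptch1 lower, where 0.909% of tested features were marked higher and 1.52% lower. No member was marked in the authors' deposited tables of libraries 2 and 3, in which 5.24% and 4.62% of tested features were.

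**Figure D1:**
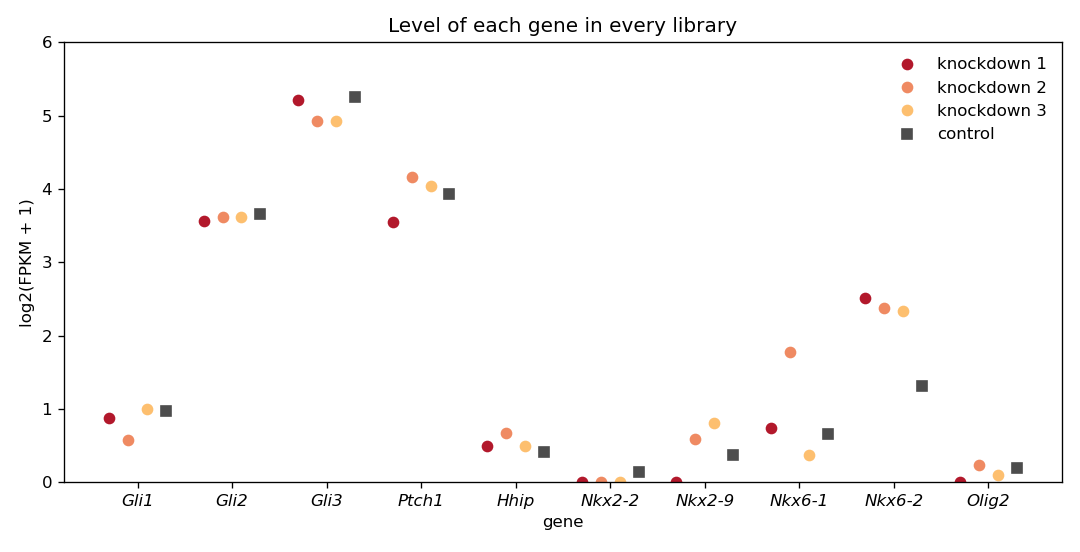
Level of the 10 genes as log2(FPKM + 1) on the vertical axis, with 1 point per library (circles, the 3 knockdown libraries; square, the control as the mean over the 3 tables). Gli3, Ptch1 and Gli2 lie highest, and the knockdown libraries lie above the control for Nkx6-2 at 4.70, 4.17 and 4.03 FPKM.

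In the knockdown libraries the order of levels was Gli3 (31.6 ± 3.8 FPKM, SD, n = 3), Ptch1 (14.4 ± 3.2), Gli2 (11.1 ± 0.23), Nkx6-2 (4.30 ± 0.35), Nkx6-1 (1.13 ± 1.13), Gli1 (0.776 ± 0.256), Hhip (0.469 ± 0.100), Nkx2-9 (0.418 ± 0.382), Olig2 (0.083 ± 0.090) and Nkx2-2, which was listed at 0 in all 3. Ranges of Ptch1 and Gli2 overlapped, and so did those of each pair of neighbours in the stretch that begins at Nkx6-1 and ends at Olig2. Gli3 lay clear of Ptch1, Gli2 clear of Nkx6-2, and Nkx6-2 clear of Nkx6-1. In the control the order differed in 1 place, with Gli1 above Nkx6-1. The summed level of the 10 genes was 64.2, 65.8 and 62.8 FPKM in the knockdown libraries and 67.1 FPKM in the control.

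Ptch1, the hedgehog receptor and itself a target of the pathway (chr13:63612840-63666828, mm9), had 10.7, 16.9 and 15.5 FPKM in the knockdown libraries and 14.3 FPKM in the control. Library 1 was below the control and libraries 2 and 3 above it. In library 1 the level was 75.0% of the control, a difference that the authors' deposited table marked (p = 0.00104, q = 0.0470). The tables of libraries 2 and 3 gave p = 0.380 and p = 0.645 in the authors' deposited tables. Over the 3 libraries the log2(FPKM + 1) ratio was -0.02 ± 0.32 (SD, n = 3), and limma gave a 95% interval of -0.78 to 0.75 (adjusted p = 0.999).

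Hhip, a membrane glycoprotein that binds hedgehog ligands and limits their range (chr8:82489749-82581907, mm9), was at 0.413, 0.584 and 0.409 FPKM in the knockdown libraries and 0.328 FPKM in the control. All 3 knockdown libraries lay above the control. None of the authors' deposited tables marked it, with p = 0.453, 0.207 and 0.641. FPKM of low features fall on whole reads, and the smallest whole-read numbers that fit Hhip were 24, 39 and 23 in the knockdown libraries and 19 in the control. Multiples of such a set fit as well, so it is a lower bound on the reads behind the value.

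Gli1, an activator transcribed in response to the pathway, lies at chr10:126760782-126778635 (mm9) in a locus that the tables share with Arhgap9. Its level was 0.840, 0.494 and 0.994 FPKM in the knockdown libraries, against 0.981, 0.924 and 0.976 FPKM for the control in the tables of libraries 1, 2 and 3. Library 3 was slightly above the control, and libraries 1 and 2 lay below it. The authors' deposited tables gave p = 0.619, 0.222 and 0.969. On the GENCODE M21 annotation, exons of Gli1 share 62 bases with Arhgap9 and 265 with Gm47200, both on the opposite strand, and whether the counting used strand is not given in the sources used here. Arhgap9 was at 0.379, 0.673 and 0.412 FPKM in the knockdown libraries and 0.463, 0.585 and 0.473 FPKM in the control, and its part in the Gli1 values was not tested.

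Gli2, the main activator of the response (chr1:120730637-120950196, mm9), had the smallest spread of the 4 members with a mean above 1 FPKM, at 10.8, 11.3 and 11.2 FPKM in the knockdown libraries and 11.7 FPKM in the control. All 3 knockdown libraries lay below the control by little, with a log2 ratio of -0.07 ± 0.03 (SD, n = 3). The limma interval ran from -0.48 to 0.35 (adjusted p = 0.999). The smallest whole-read numbers were 462, 551 and 464 in the knockdown libraries and 496 in the control.

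Gli3, which acts mainly as the repressor and limits ventral fates (chr13:15555555-15821858, mm9), was the most abundant member at 36.0, 29.3 and 29.5 FPKM in the knockdown libraries, against 37.3 FPKM in the control. Library 1 was at 96.7% of the control, and libraries 2 and 3 were at 78.6% and 79.1% of it. The authors' deposited tables gave p = 0.587, 0.107 and 0.0889. The log2 ratio was -0.24 ± 0.17 (SD, n = 3), with a limma interval of -0.70 to 0.23 (adjusted p = 0.999). No table marked Gli3.

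**Figure D2:**
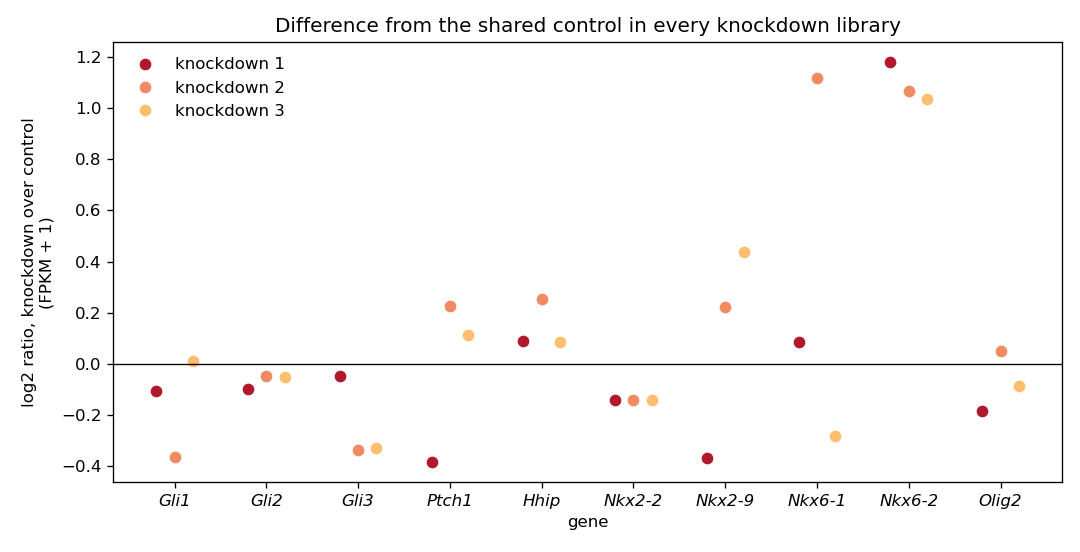
Log2 ratio of each knockdown library over the control of its own table, on log2(FPKM + 1), for the 10 genes, with 1 point per knockdown library and a line at 0. The 3 points of Nkx6-2 lie at 1.18, 1.07 and 1.04, while Nkx6-1 has 1 library at 1.12 and the others at 0.08 and -0.28.

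Across the 10 genes, the median of the log2 ratios came to -0.10, 0.14 and -0.02 in the 3 knockdown libraries in turn, beside medians of -0.01, 0.03 and 0.01 over the 12280 features with a mean of at least 1 FPKM. Hhip and Nkx6-2 lay above the control in all 3 tables, 2 of 10 beside 20.6% of 17153 features with a nonzero level and no failed estimate. Gli2, Gli3 and Nkx2-2 lay below it in all 3, 3 of 10 beside 21.9% of those features. Both shares are near the background.

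Nkx6-2 encodes a homeodomain repressor of ventral progenitors that is also expressed in oligodendrocytes. Its 3 knockdown values were 3.10, 2.84 and 2.77 times the control, which is the same 1 library in each ratio. Lying above that control in all 3 tables was shared by 20.6% of 17153 features. The log2 ratio was 1.09 ± 0.08 (SD, n = 3). The authors' deposited table of library 1 marked it (p = 0.0009998, q = 0.0457), whereas those of libraries 2 and 3 gave p = 0.0246 (q = 0.241) and p = 0.0288 (q = 0.282). In limma the log2 difference had a standard error of 0.223 and a 95% interval of 0.50 to 1.69. Its adjusted p in limma, by the Benjamini-Hochberg method over 11968 features, was 0.999. Limma called none of the 4 members tested, Gli2, Gli3, Ptch1 and Nkx6-2, where it called 15 of the 11968 features (0.125%). Only Nkx6-2 of the 4 had an unadjusted p under 0.05, beside 1.27% of the features tested. By a rule added after the values were seen, an FPKM at least 2 times the control in all 3 tables, Nkx6-2 was 1 of 29 features of 11968 (0.242%). Without library 1, which the authors marked, the log2 ratio was 1.05, and leaving out each library in turn gave 1.05 to 1.12.

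The locus that the tables give for Nkx6-2 (chr7:146575007-146768696, mm9) also holds Inpp5a, an inositol phosphatase gene. Exons of the 2 genes share 246 bases on opposite strands in GENCODE M21, and the control value of Nkx6-2 differed slightly between tables. Inpp5a had 9.80, 11.6 and 11.3 FPKM in the knockdown libraries, against 11.96, 11.99 and 11.99 FPKM for the control in the 3 tables, below the control in each library and marked in none of the authors' deposited tables. How reads in the shared bases were assigned is not given in the sources used here, and the part of Inpp5a in the Nkx6-2 value was not tested.

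Nkx6-1, the paralog that specifies motor neuron and adjacent progenitors (chr5:102088215-102093730, mm9), was at 0.672, 2.42 and 0.297 FPKM in the knockdown libraries and 0.578 FPKM in the control. Only library 2 stood well above the control, at 4.19 times its level, and library 3 was below it. The authors' deposited tables held a test for library 2 alone (p = 0.00936, q = 0.128). The smallest whole-read numbers were 7, 29 and 3 in the knockdown libraries and 6 in the control. Without library 2 the mean log2 ratio of Nkx6-1 was -0.10, against 0.31 with it, so its direction rests on that library.

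The longest stretch of sequence common to the transcripts of the Nkx6 paralogs is 17 bases. It is shown in capitals within 15 bases of context on each side, from GENCODE M21 transcripts, since reads longer than the capitals differ between the genes.
Nkx6-1: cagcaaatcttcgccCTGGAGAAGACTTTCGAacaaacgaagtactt
Nkx6-2: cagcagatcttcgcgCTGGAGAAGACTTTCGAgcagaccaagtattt
Among the Gli genes the longest common runs were 23 bases for Gli1 and Gli2, 14 for Gli1 and Gli3, and 25 for Gli2 and Gli3. The read length is not given in the sources used here.

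The genes of the most ventral domains were at or near the lowest values that the libraries resolve. Nkx2-2, the factor of visceral motor and V3 progenitors (chr2:147003281-147157417, mm9), was listed at 0 in all 3 knockdown libraries and at 0.102 FPKM in the control, with p = 0.165 in each of the authors' deposited tables. Its locus is shared with the antisense feature Nkx2-2as, listed at 0 in all libraries, and the tables give Nkx2-2 a usable test status in all 3. Nkx2-9, a related factor of the same region (chr12:57712383-57714271, mm9), was listed at 0 in knockdown library 1 and had 0.505 and 0.749 FPKM in libraries 2 and 3, against 0.291 FPKM in the control. The smallest whole-read numbers for Nkx2-9 were 0, 4 and 5 in the knockdown libraries and 2 in the control. Olig2, the determinant of motor neuron and oligodendrocyte precursors (chr16:91225794-91228922, mm9), was listed at 0, and then 0.178 and 0.0706 FPKM, in the knockdown libraries and had 0.137 FPKM in the control. That corresponds to 0, 3 and 1 reads in the knockdown libraries and 2 in the control at the smallest fit. The authors' deposited tables made no test of Nkx2-9 or Olig2, and differences of a few reads were not detectable at this depth.

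Promoters of 300 bases, 250 before and 50 after the start site, were read from RefSeq (GRCm38.p6) for 9 of the 10 genes. The 7-base core of the Gli binding site, CCACCCA on either strand (TGGGTGG on the other), occurred in 2 of the 9, Nkx2-9 and Olig2, beside 9.30% of all 32851 promoters of that length. Median GC content was 67.3% in the 9 (59.3% to 76.3%), against 52.7% over all promoters, and the median observed over expected CpG ratio was 0.830 against 0.384. The promoter of Nkx6-2, the member with the largest mean ratio, holds no match in this window (chr7:139582748-139583047, minus strand), so it is printed without capitals. Those of Nkx2-9 (chr12:56613235-56613534, minus strand) and Olig2 (chr16:91225300-91225599, plus strand) have the match in capitals, starting at -207 and -17 from the start site. A match is a run of letters and not a shown binding site.
Nkx6-2: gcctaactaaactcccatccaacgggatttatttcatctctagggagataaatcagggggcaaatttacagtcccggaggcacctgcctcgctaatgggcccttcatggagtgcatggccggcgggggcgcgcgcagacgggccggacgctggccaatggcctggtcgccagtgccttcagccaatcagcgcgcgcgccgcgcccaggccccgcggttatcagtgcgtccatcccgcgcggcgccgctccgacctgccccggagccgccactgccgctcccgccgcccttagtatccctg
Nkx2-9: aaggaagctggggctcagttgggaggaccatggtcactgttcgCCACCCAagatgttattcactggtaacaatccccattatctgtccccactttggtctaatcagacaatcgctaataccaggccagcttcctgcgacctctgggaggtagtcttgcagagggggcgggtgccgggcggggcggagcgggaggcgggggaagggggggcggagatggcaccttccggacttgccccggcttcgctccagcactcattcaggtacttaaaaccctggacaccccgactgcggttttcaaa
Olig2: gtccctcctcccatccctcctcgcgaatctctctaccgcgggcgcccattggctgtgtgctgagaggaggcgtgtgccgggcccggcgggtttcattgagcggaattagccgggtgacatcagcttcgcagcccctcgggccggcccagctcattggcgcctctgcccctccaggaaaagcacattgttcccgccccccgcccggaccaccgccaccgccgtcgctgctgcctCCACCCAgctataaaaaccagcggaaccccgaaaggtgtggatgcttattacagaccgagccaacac

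The features whose 3 log2 ratios lay nearest to those of Nkx6-2 were Hist2h4, 1810049H13Rik and Mxd3, at Euclidean distances of 0.297, 0.357 and 0.449 log2 units over the 3 knockdown libraries. Hist2h4, a histone H4 gene on chromosome 3, was at 19.4, 21.4 and 20.6 FPKM in the knockdown libraries and 10.0 FPKM in the control. Mxd3, a partner of Max, was at 9.24, 12.6 and 8.69 FPKM in the knockdown libraries and 4.64 FPKM in the control. Of 210 features at least 1 log2 unit above the control in libraries 2 and 3, 11 (5.24%) were so in library 1 as well. Nkx6-2 passed that threshold in all 3 libraries. Its 3 nearest features did not pass it in library 1, where Hist2h4, 1810049H13Rik and Mxd3 were at 0.89, 0.91 and 0.86.

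The rest of the pathway was measured in 37 further genes, of which 31 had a mean of at least 1 FPKM. None rose or fell by the rule of 2 marked tables, beside 1.98% of testable features that rose and 0.905% that fell. Their median ratio on the log2 scale was -0.08, -0.00 and 0.00 in the 3 knockdown libraries in turn. The authors' deposited tables marked 0 genes higher and 3 lower in library 1 (Scube1, Gpc3 and Smo), where 0.909% and 1.52% of tested features were. In library 2 they marked 1 higher and 1 lower (Scube1 and Cdon), where 3.23% and 2.02% of tested features were. In library 3 they marked 0.

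Ligand transcripts were scarce. Shh had 0, 0.108 and 0.128 FPKM in the knockdown libraries and 0.124 FPKM in the control, Ihh 0.068, 0.771 and 0.844 FPKM against 0.205 FPKM, and Dhh 0.071, 0.123 and 0.510 FPKM against a control listed at 0. Scube1, a secreted protein that helps release ligand, was at 5.23, 13.0 and 7.59 FPKM in the knockdown libraries and 7.18 FPKM in the control, and its marks in libraries 1 and 2 of the authors' deposited tables ran in opposite directions. Scube3, of the same family, was at 11.5, 26.8 and 24.8 FPKM in the knockdown libraries and 14.9 FPKM in the control, unmarked in all 3. Scube2, also of that family, was at 9.14, 8.11 and 4.79 FPKM in the knockdown libraries. It lay below the 10.5 FPKM of the control in each library and was unmarked.

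The coreceptors Boc, Cdon and Gas1 were abundant. Boc had 25.6, 27.5 and 25.8 FPKM in the knockdown libraries and 27.6 FPKM in the control, while Cdon had 27.6, 15.6 and 24.4 FPKM against 27.3 FPKM and was marked lower in library 2 of the authors' deposited tables. Lrp2, an endocytic receptor that takes up Shh, was at 78.2, 29.1 and 43.5 FPKM in the knockdown libraries and 76.4 FPKM in the control. Gpc3, a glypican that competes for ligand, was at 37.0, 71.9 and 67.7 FPKM in the knockdown libraries and 55.6 FPKM in the control.

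Among transducers, Smo was at 49.8, 55.5 and 45.7 FPKM in the knockdown libraries and 61.3 FPKM in the control, below the control in each. Sufu, which holds Gli proteins inactive, was at 21.6, 16.4 and 17.3 FPKM in the knockdown libraries and 26.0 FPKM in the control, again below it in each and unmarked. Csnk1a1, a kinase that phosphorylates Gli proteins, was at 204, 254 and 257 FPKM in the knockdown libraries and 209 FPKM in the control. Of the targets shared with other pathways, Ccnd1, cyclin D1, had 67.7, 64.1 and 75.3 FPKM in the knockdown libraries and 67.9 FPKM in the control, and Mycn had 35.0, 40.3 and 53.6 FPKM against 39.6 FPKM.

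**Figure D3:**
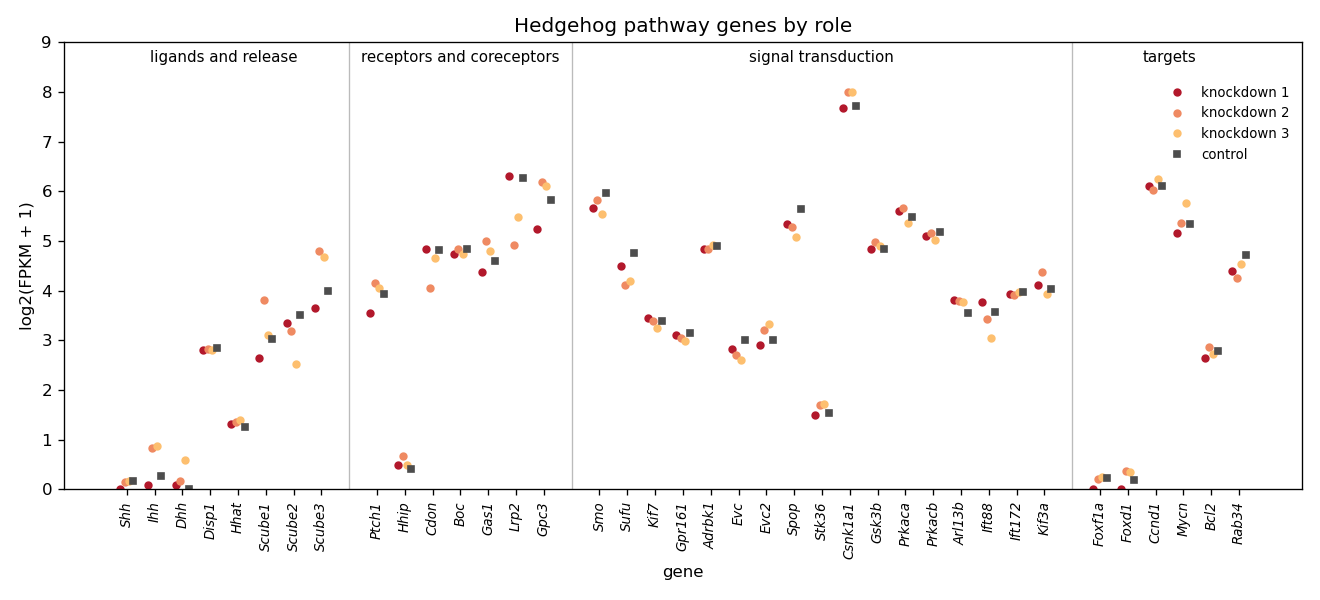
Levels as log2(FPKM + 1) of the hedgehog pathway genes grouped by role, with 1 point per library (circles, knockdown; square, control as the mean over the 3 tables). The ligands Shh, Ihh and Dhh lie below 1 FPKM in every library, while the receptors and transducers Boc, Lrp2, Gpc3 and Smo lie above 25 FPKM.

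Factors of neighbouring positions on the dorsoventral axis were read by the same rule of 2 marked tables. By that rule 1.98% of 14477 testable features rose and 0.905% fell. In the floor plate list 7 of 9 genes could be called and 1 rose. It was Ntn1, the axon guidance cue netrin-1, at 14.1, 58.1 and 29.8 FPKM in the knockdown libraries and 17.9 FPKM in the control. Foxa2, the defining floor plate factor, was at 3.57, 4.07 and 5.74 FPKM in the knockdown libraries and 5.10 FPKM in the control. Of the other ventral and intermediate progenitor factors, Nkx2-1, Nkx2-4 and Olig1 were listed at 0 in every library. Dbx1 was at 6.28, 23.8 and 5.97 FPKM in the knockdown libraries and 9.73 FPKM in the control. Dbx2 was at 0.369, 8.61 and 2.06 FPKM against 0.815 FPKM, and both were marked higher in library 2 alone. Irx3 was at 51.7, 73.8 and 34.6 FPKM against 57.1 FPKM and was marked lower in library 3 alone. Pax6 and Sp8 were expressed and marked in none.

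Among the 15 ventral neuron factors 6 could be called, beside the 1.98% of testable features that rose. Of the 6, 2 LIM factors of several interneuron classes rose, Lhx1 and Lhx5. Lhx1 was at 0.180, 5.999 and 1.49 FPKM in the knockdown libraries and 0.060 FPKM in the control. Lhx5 was at 0.181, 7.29 and 1.93 FPKM against 0.121 FPKM. Of 18 dorsal factors 14 could be called and 1 rose, Prdm13, a transcriptional regulator of dorsal interneuron fates. Prdm13 was at 0.617, 12.3 and 7.11 FPKM in the knockdown libraries and 0.155 FPKM in the control. None of Ntn1, Lhx1, Lhx5 and Prdm13 was marked in library 1, and each was marked in libraries 2 and 3 of the authors' deposited tables.

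**Figure D4:**
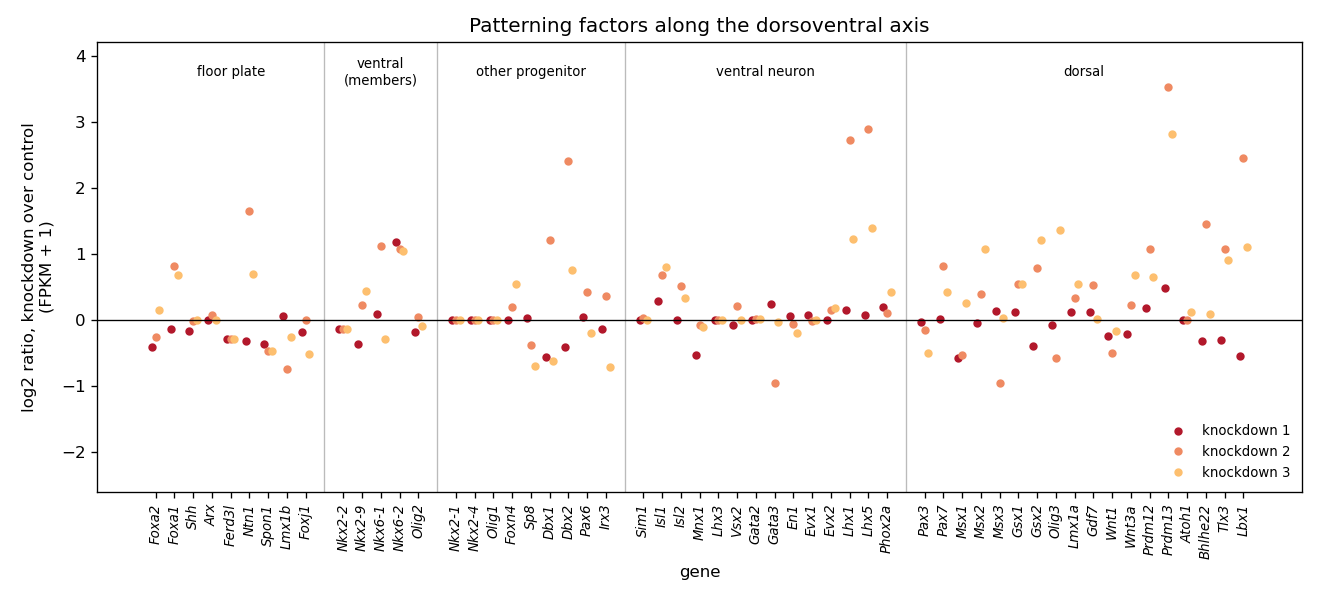
Log2 ratio of each knockdown library over the control, on log2(FPKM + 1), for factors of the floor plate, the 5 ventral members, other progenitor factors, ventral neuron factors and dorsal factors, with 1 point per knockdown library. Nkx6-2 is at 1.18, 1.07 and 1.04, while Prdm13, Lhx1 and Lhx5 are above 1 in libraries 2 and 3 and at 0.49, 0.15 and 0.08 in library 1.

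Summed levels of several marker lists of other cells were higher in libraries 2 and 3. By the rule of 2 marked tables, 1.98% of testable features rose. The summed level of the 8 measured neuron markers was 151, 545 and 275 FPKM in the knockdown libraries and 141 FPKM in the control. Of the 7 that could be called, 4 rose (Nefm, Tubb3, Elavl4 and Nefl). Stmn2, the most abundant of them in the control, was at 75.4, 44.6 and 40.5 FPKM in the knockdown libraries and 66.9 FPKM in the control, and the authors' deposited table of library 3 marked it lower. That of the 10 pluripotency markers was 84.5, 336 and 550 FPKM in the knockdown libraries and 62.2 FPKM in the control, and 7 rose, among them Dppa5a, Tdgf1, Zfp42 and Esrrb. For 10 fibroblast markers, which feeder cells would carry, the sums were 35.3, 54.1 and 81.0 FPKM in the knockdown libraries and 32.7 FPKM in the control. Of the 8 fibroblast markers that could be called, 2 rose, Postn and Lox. The part of these cells in the values of Nkx6-2, Nkx6-1, Nkx2-9, Lhx1, Lhx5, Ntn1 and Prdm13 was not tested.

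The 9 oligodendrocyte lineage markers summed to 18.8, 19.5 and 21.7 FPKM in the knockdown libraries and 20.0 FPKM in the control. None was called, and 5 could be. Olig1 was listed at 0 in all libraries and Mbp had a failed estimate, whereas Pdgfra (9.42, 9.73 and 13.4 FPKM in the knockdown libraries, 8.91 FPKM in the control) and Myrf (4.39, 5.64 and 5.26 FPKM against 4.46 FPKM) made up most of the sum. Endoderm and mesoderm lists had 1 called gene each, Cubn and Tcf15, of 8 and 6 that could be called. Vim rose among the 10 neural precursor markers, at 376, 1005 and 958 FPKM in the knockdown libraries and 388 FPKM in the control. Over all testable features 1.98% rose.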

How the data were processed

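FPKM values were deposited by the authors in 3 tables, each setting 1 knockdown library against the shared control, per the file headers. The submitters' processing notes name TopHat, Cufflinks, Cuffdiff and mm9, without versions, and no gene annotation is named in the sources used here. The deposited p-value and q-value are Cuffdiff's. Some q-values exceed 1, so that column was handled as a score, and the deposited natural log of control over knockdown, also a score, was used for direction only. Ratios were formed within a table.

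Features were called by the rule stated for the series (marked in at least 2 of 3 tables, 1 direction). For the limma test (version 3.58.1, R 4.3.3), log2(FPKM + 1) values of 11968 features tested in each of the 3 tables and averaging 1 FPKM or more were used with a trended prior. The ratio within its own table set each knockdown value relative to the control, and p-values had Benjamini-Hochberg adjustment at 0.05. It has 2 residual degrees of freedom and assumes that the lone control varies like the knockdown libraries. No exact permutation test was run, since 3 against 1 allows no p under 0.25 (one-sided) or 0.5 (two-sided). Log2 ratios with a pseudocount of 1 understate differences of low genes. The limma script was checked on simulated data. In these the control was drawn with the same spread as the knockdown libraries, so the assumption about the lone control was not tested.

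Absolute depth is unknown. Depths relative to the control were read from low features, of which 84.7% to 87.9% were whole-read ratios (up to 12 reads, tolerance 0.2%). Whole-read sets are the smallest within 0.005 reads, with up to 1000 reads tried in the control. No such set was found for Gli1, Gli3, Nkx6-2 or Nkx2-2.

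Members and gene lists were chosen with earlier results of these data known. Named genes are the members, up to 4 called genes of each list with the largest mean log2 ratio or, where none was called, the 2 most abundant, and for Nkx6-2 the 3 nearest features. Other pathway and patterning genes named with values were chosen after these were seen. The 2 deposited files that repeat marked features were not used. Some genes that the rule names are left out here, in text and plots.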

Additional observations from a re-analysis of the deposited data

How the results depend on the processing

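No member was called under any alternative planned for either rule: a mark in all 3 tables, a q-value under 0.01, a pseudocount of 0.1, no minimum on FPKM, centred ratios, a prior without trend, or leaving out each knockdown library. With no minimum, limma tested 7 members, called 0 and had 1 with an unadjusted p under 0.05. A threshold of 2 times the control in all 3 tables, added after seeing the data, gave 1 member, Nkx6-2, and 29 features. Over all features the rule of 2 marked tables gave 417 calls, against 17 with a mark in all 3 tables and 254 with a q-value under 0.01. Requiring both remaining marks after leaving out a library gave 34 to 392 calls, with 392 without library 1, 35 without library 2 and 34 without library 3. Limma's 15 calls became 9 with a pseudocount of 0.1, 7 with no minimum and 7 without the trend, and leaving out a library gave 6 to 28, with 28 without library 1 and 6 without library 3. The cause was not tested. The median member ratio of -0.04 was -0.07 with the small pseudocount, -0.05 when centred, and -0.09 to 0.08 with a library left out, above 0 without library 1. Of 50 recomputed member ratios 5 moved by more than the SD between libraries. With the small pseudocount these were Hhip (0.14 to 0.40), Nkx2-2 (-0.14 to -1.02), Nkx6-2 (1.09 to 1.48) and Olig2 (-0.07 to -0.50). Nkx2-2 also moved when centred (to -0.15). Leaving out 1 library of 3 cannot shift a mean by as much as that SD, so the count does not test those settings. Signs changed for 4 ratios in 3 genes: Ptch1 without library 1 (0.17), Nkx2-9 with the small pseudocount (-0.07) and without library 3 (-0.07), and Nkx6-1 without library 2 (-0.10). Nkx6-2 stayed between 1.05 and 1.48. No paired analysis was possible because the groups share only replicate number 1. With 1 control, its own spread cannot be measured.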
